A study of Mus musculus with 6 samples.

Results

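The genes described here are 28 genes of nuclear receptors, measured in the livers of wild-type (WT) mice and of Gα12-deficient mice. Gα12, the product of Gna12, is a G protein subunit that relays signals from receptors at the cell surface. The receptor genes were chosen by name, as receptors known from liver, and found on the array through the RefSeq accession that the deposited files give for each probe. They are 28 of 20280 genes that could be named on the array. All 28 had at least 1 probe, 43 probes in all, and 24 of them had a probe with a signal well above background in 3 livers or more. The study compared RNA from 3 WT livers with RNA from 3 Gα12 KO livers on 1-colour Agilent expression arrays, to find transcripts that differ when Gα12 is missing. Both groups were male mice aged 8 weeks, fed chow and fasted overnight, and both carried a background that was 95% C57BL/6 with 129/Sv as the other strain, so fasting and the mixed background are shared by the controls. How Gna12 was disrupted, and in which cells, is not given in the sources used here.

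Nuclear receptors are transcription factors, many of which are switched by small lipophilic ligands such as bile acids, oxysterols, retinoids, steroids and thyroid hormone. Most bind DNA at copies of a hexamer close to AGGTCA, alone, as homodimers or as heterodimers with a retinoid X receptor, and recruit coactivators or corepressors. In liver they set bile acid, cholesterol, lipid and glucose metabolism in feeding and fasting. Stellate cells, which store vitamin A, and endothelium express some of them beside the hepatocytes.

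Levels below are in log2 units, with the 75th percentile of an array set to 0, differences are knockout minus WT on that log2 scale, and n is 3 livers in each group unless stated. A level belongs to its probe and cannot be set against the level of another probe. A pair of the WT arrays, replicates 1 and 2, stood apart from the remaining 4. Across probes the correlation was r = 0.973 within that pair, 0.869 to 0.933 between the pair and the other arrays, and 0.966 to 0.982 between WT replicate 3 and the knockout arrays. The 7 probes of Gapdh, a gene of glycolysis, spanned 9.58, 7.79 and 4.01 log2 units on WT replicates 1, 2 and 3 and 4.36 to 4.87 units on the knockout arrays. Differences are therefore also given with WT replicate 3 as the only WT liver, where limma takes the spread of the knockout livers for that of WT. The single Gna12 probe was well above background on WT replicate 3 alone (log2 level -0.89), so it checks nothing for WT replicates 1 and 2. Genotype and position on the single slide cannot be told apart, since WT arrays lay in row 1 and knockout arrays in row 2. All 6 livers had the hepatocyte markers, with no marker below background throughout. The summed marker level was 12.5 to 13.4 in WT and 12.8 to 13.2 in the knockout. WT replicate 3 had the lowest sum of all livers, 12.5. With it as the only WT liver, all 9 markers were higher in the knockout, with a median difference of 0.54. With all livers 7 were higher and 2 lower, with a median of 0.11.

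Promoters of receptor genes often carry binding sites for other receptors, and the 250 bases before the start of transcription are shown here for 4 of the genes that the results return to. Rarb and Nr0b2 are textbook targets of receptors in the same set, and Nr1h4 and Pparg are genes whose WT and knockout values did not overlap. Windows from RefSeq (GRCm38.p6) were searched for 25 of the 28 genes, 40 windows in all. Nr3c1, Thra and Hnf4g had no window in the search. The sequences run 5′ to 3′ on the strand of the gene. Capitals mark, in Rarb, a pair of hexamers repeated in the same direction with 5 bases between them, which is the form of a retinoic acid response element. Each hexamer had to be AGGTCA or a close variant of it: AGTTCA was allowed, as was GGGTCA, and so was GGTTCA. In Nr0b2 they mark TCAAGG, the hexamer read by LRH-1, and in Nr1h4 and Pparg the hexamer AGGTCA on either strand.
Rarb, chr14:16575477-16575726, minus strand: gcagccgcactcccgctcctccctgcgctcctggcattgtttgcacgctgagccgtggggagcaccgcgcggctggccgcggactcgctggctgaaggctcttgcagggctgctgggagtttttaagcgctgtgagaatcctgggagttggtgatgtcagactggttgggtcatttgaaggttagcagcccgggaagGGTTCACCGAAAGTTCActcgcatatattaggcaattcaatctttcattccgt
Nr0b2, chr4:133553126-133553375, plus strand: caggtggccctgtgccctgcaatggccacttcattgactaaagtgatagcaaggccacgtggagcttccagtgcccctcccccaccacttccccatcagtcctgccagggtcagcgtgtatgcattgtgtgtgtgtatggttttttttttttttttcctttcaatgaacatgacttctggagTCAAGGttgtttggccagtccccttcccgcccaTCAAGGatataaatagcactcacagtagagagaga
Nr1h4, chr10:89506659-89506908, minus strand: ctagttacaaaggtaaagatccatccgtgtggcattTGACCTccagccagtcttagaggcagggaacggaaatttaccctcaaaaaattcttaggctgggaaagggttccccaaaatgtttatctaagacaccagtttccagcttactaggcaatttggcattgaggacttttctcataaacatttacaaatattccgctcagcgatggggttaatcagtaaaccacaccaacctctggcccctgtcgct
Pparg, chr6:115360894-115361143, plus strand: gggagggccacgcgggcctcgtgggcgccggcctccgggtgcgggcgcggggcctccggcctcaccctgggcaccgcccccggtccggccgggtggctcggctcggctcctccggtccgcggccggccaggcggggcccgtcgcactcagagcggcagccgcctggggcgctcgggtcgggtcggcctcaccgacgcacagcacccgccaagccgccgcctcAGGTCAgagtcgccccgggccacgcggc
Pparg, chr6:115362099-115362348, plus strand: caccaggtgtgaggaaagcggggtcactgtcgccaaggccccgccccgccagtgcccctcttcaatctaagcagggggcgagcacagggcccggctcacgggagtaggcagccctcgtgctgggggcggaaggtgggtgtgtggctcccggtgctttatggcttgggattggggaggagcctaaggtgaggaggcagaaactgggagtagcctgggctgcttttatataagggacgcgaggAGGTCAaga
The Rarb window held the repeat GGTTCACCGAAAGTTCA at positions -53 to -37 from the start, and no window of the other genes held such a repeat with 5 bases between. Of 32851 RefSeq promoter windows of the same length, 29 (0.088%) held it, with both strands searched. The Nr0b2 window held TCAAGG at -68 to -63 and at -35 to -30. That hexamer was in 12.459% of all windows and in 5 of the 40 receptor windows, those of Nr0b2, Rara, Rxrb, Rxrg and Thrb. AGGTCA was in 14.024% of all windows and in 9 of the 40, among them Nr1h4 at -214 to -209, where it lies on the other strand and is printed as TGACCT, and both Pparg windows shown, at -28 to -23 and at -9 to -4. A further Pparg window, chr6:115421816-115422065, held no AGGTCA on either strand and is not printed. These matches describe letters in the windows and not bound sites.

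No receptor gene passed the test over all probes. In limma with Benjamini-Hochberg adjustment, 0 of the 24 measured receptor genes had an adjusted p below 0.05, as did 0 of all 12294 genes (0%). The lowest adjusted p among the receptors was 0.235. At an unadjusted p below 0.05, 5 receptors were lower in the knockout (20.8% of them, against 16.6% of all genes) and 0 were higher (3.99% of all genes). These 5 were Nr3c1, Pparg, Rarb, Nr2f2 and Nr5a2. All 3 knockout values lay below all 3 WT values in 7 receptors (29.2%, against 21.1% of all genes), Nr1h4, Nr3c1, Nr5a2, Rarb, Rarg, Pparg and Rora, and above them in 0 (4.42% of all genes). These shares were near the shares over all genes, which are also the background for the counts in each list below. The median difference was -0.58 over the 24 receptors and -0.49 over all genes. Under a scaling to the 75th percentile of the probes detected on all arrays the medians were -0.10 and -0.02, and at an unadjusted p below 0.05 it had 1027 of all genes lower and 700 higher, in place of 2038 and 490.

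**Figure D1:**
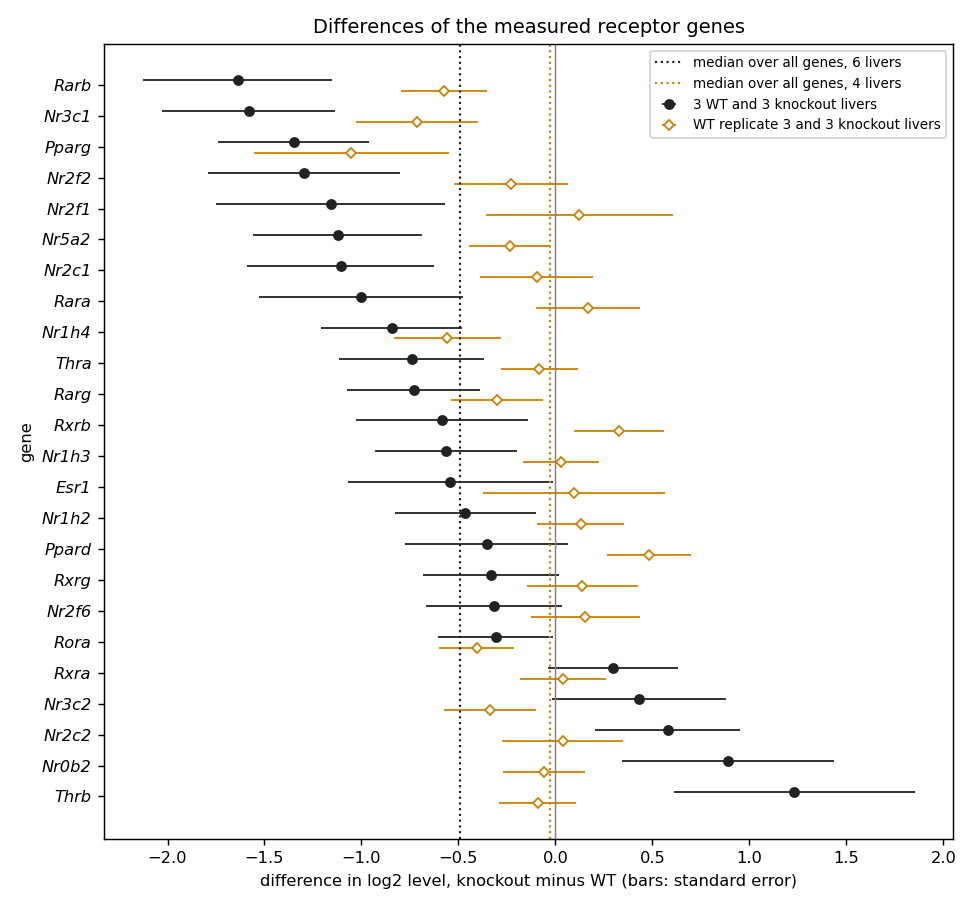
Difference in log2 level (x axis, knockout minus WT, bars are standard errors from limma) for each of the 24 measured receptor genes (y axis), with all 6 livers (filled) and with WT replicate 3 as the only WT liver (open). Dotted lines are the medians over all genes, -0.49 and -0.03. The open points lie closer to 0 for most genes, and those of Rarb, Nr3c1, Pparg, Nr1h4, Rarg, Rora, Nr5a2 and Nr3c2 lie below it by more than their standard error.

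With WT replicate 3 as the only WT liver, limma called 0 receptors (0% of all genes) at an adjusted p below 0.05. At an unadjusted p below 0.05 it had 0 receptors lower, against 4.06% of all genes, and 0 higher, against 2.72%. The median difference was -0.07 over the receptors and -0.03 over all genes. In 9 receptors (37.5%, against 32.6% of all genes) WT replicate 3 lay above all 3 knockout livers, and in 2, Rxrb and Ppard, it lay below them (8.33%, against 26.8%). The 9 were Nr1h4, Nr3c1, Nr3c2, Nr5a2, Rarb, Rarg, Thrb, Pparg and Rora. With WT replicates 1 and 2 as the only WT livers, limma called 18 of the 24 receptors (75%) and 62.2% of all genes. The receptors' values showed the same division of the arrays. Their median lay 1.03 above the knockout mean on WT replicate 1, 0.81 above it on WT replicate 2 and 0.07 above it on WT replicate 3. Among the receptors, 16, 11 and 1 lay over 1 log2 unit from the knockout mean on those 3 arrays, and 0 did so on any knockout array.

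**Figure D2:**
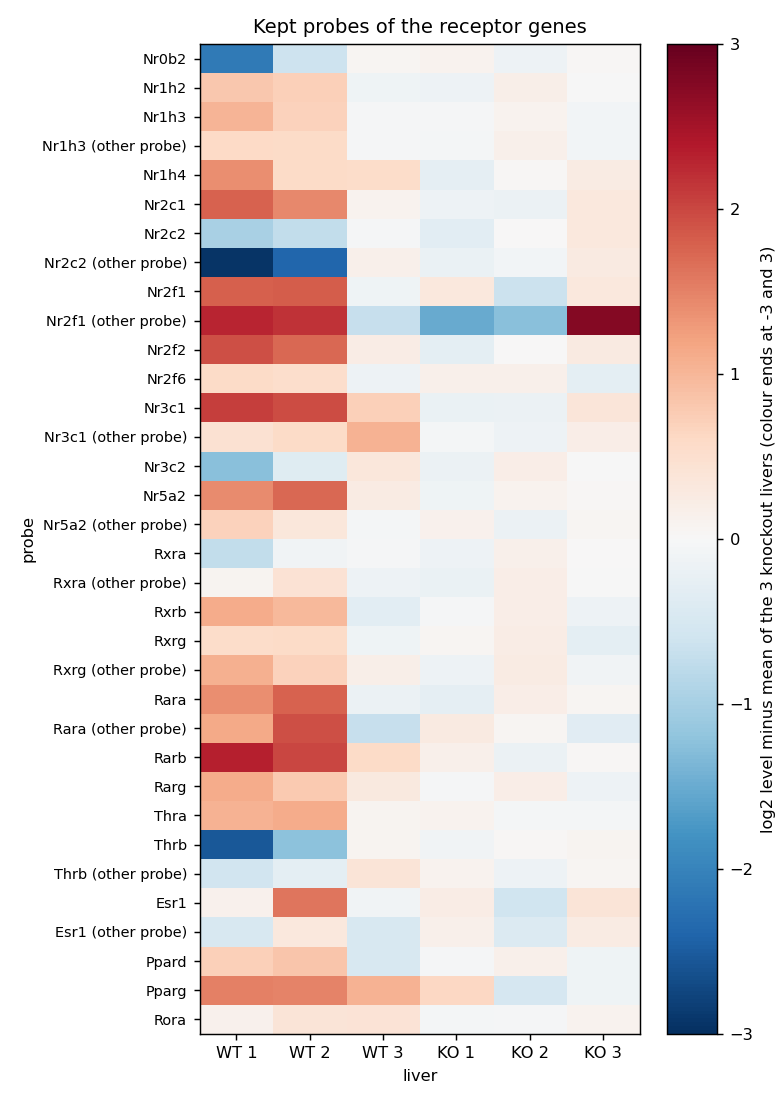
Colour gives the log2 level of each of the 34 receptor probes that passed the background filter (rows) in each liver (columns), minus the mean of the 3 knockout livers, and the colour scale ends at -3 and 3. WT 1 and WT 2 are strongly coloured in most rows, mainly upwards, and WT 3 is pale in most rows.

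The retinoic acid receptors bind all-trans retinoic acid as heterodimers with retinoid X receptors. Rarb, which encodes the receptor β form and is induced through the element shown above, had levels of 1.74, 1.40 and -0.03 in WT livers and of -0.46, -0.77 and -0.58 in knockout livers. All knockout livers were below all WT livers, with WT replicate 3 closer to the knockout livers than to the other WT livers. The means were 1.04 ± 0.94 (SD) in WT and -0.60 ± 0.16 in the knockout, 3.11-fold apart, with a difference of -1.64 (SE 0.49, limma adjusted p = 0.235), and with WT replicate 3 alone it was -0.57 (SE 0.22). Rarg, the γ form, was at 1.32, 0.99 and 0.51 in WT and at 0.16, 0.41 and 0.05 in the knockout. These groups did not overlap either, but the lowest WT liver was close to the highest knockout liver. The Rarg difference was -0.73 (SE 0.34, limma adjusted p = 0.241), and -0.30 (SE 0.24) with WT replicate 3 alone. Rara, the α form that most tissues express, was at 4.77, 5.14 and 3.20 in WT and at 3.1, 3.58 and 3.42 in the knockout. Its difference of -1.0 (SE 0.53) came from WT replicates 1 and 2, and it was 0.17 (SE 0.27) with WT replicate 3 alone.

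Genes that store, convert or break down retinoids, or that retinoic acid induces, were followed in a list of 17, of which 13 were measured. At an unadjusted p below 0.05, 4 had lower and 0 had higher knockout values, and 5 had groups that did not overlap, all lower, beside 16.6%, 3.99% and 21.1% of all genes for the same counts. The list's median difference was -0.55 (-0.49 over all genes), or -0.19 with WT replicate 3 alone. None of the 13 passed the limma test over all probes. Lrat, which esterifies retinol for storage in stellate cells, was at 1.32, 0.56 and 0.00 in WT livers and at -0.83, -1.17 and -0.38 in knockout livers, a difference of -1.42 (SE 0.43). Every WT liver was above every knockout liver. Rdh11, a retinal reductase gene, differed by -1.42 (SE 0.41), and Aldh1a1, which oxidises retinal to retinoic acid, by -0.79 (SE 0.30). For these 3 genes the limma adjusted p was 0.235, and with WT replicate 3 alone the differences were -0.80 (SE 0.37) for Lrat, -0.81 (SE 0.42) for Rdh11 and -0.61 (SE 0.22) for Aldh1a1. Cyp26a1, the retinoic acid hydroxylase that responds strongly to its substrate, was at -0.20, 1.42 and 1.78 in WT and at 1.22, -0.08 and 0.21 in the knockout, and its groups overlapped, with a difference of -0.55 (SE 0.60), or -1.33 (SE 0.58) with WT replicate 3 alone.

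Markers of stellate cells or fibroblasts were also lower in the knockout in part. Of 10 measured markers 3 were lower in the knockout at an unadjusted p below 0.05 (Lrat, Lum and Hand2), 6 had all knockout values below all WT values, and their summed level was 6.89 to 7.59 in WT and 6.49 to 6.70 in the knockout, with no overlap. Of all genes, 16.6% were lower at that p and 21.1% had all knockout values below all WT values. Of the 10 markers, 9 were lower and 1, Des, was higher, by 1.28 (SE 0.72). Des was well above background on 1 WT liver and 2 knockout livers. The median difference was -0.88, or -0.39 with WT replicate 3 alone. With that liver alone 8 were lower and 2 higher, Pdgfrb (0.02) and Col1a1 (0.08). Dcn, the brightest marker, carried much of the sum. It was at 7.12, 6.88 and 6.34 in WT and at 6.05, 5.94 and 6.22 in the knockout. Lrat is in both lists. In RNA from whole liver, fewer cells of a type and less RNA per cell cannot be told apart. The part of these markers in the values of Rarb and the retinoid genes was not tested.

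**Figure D3:**
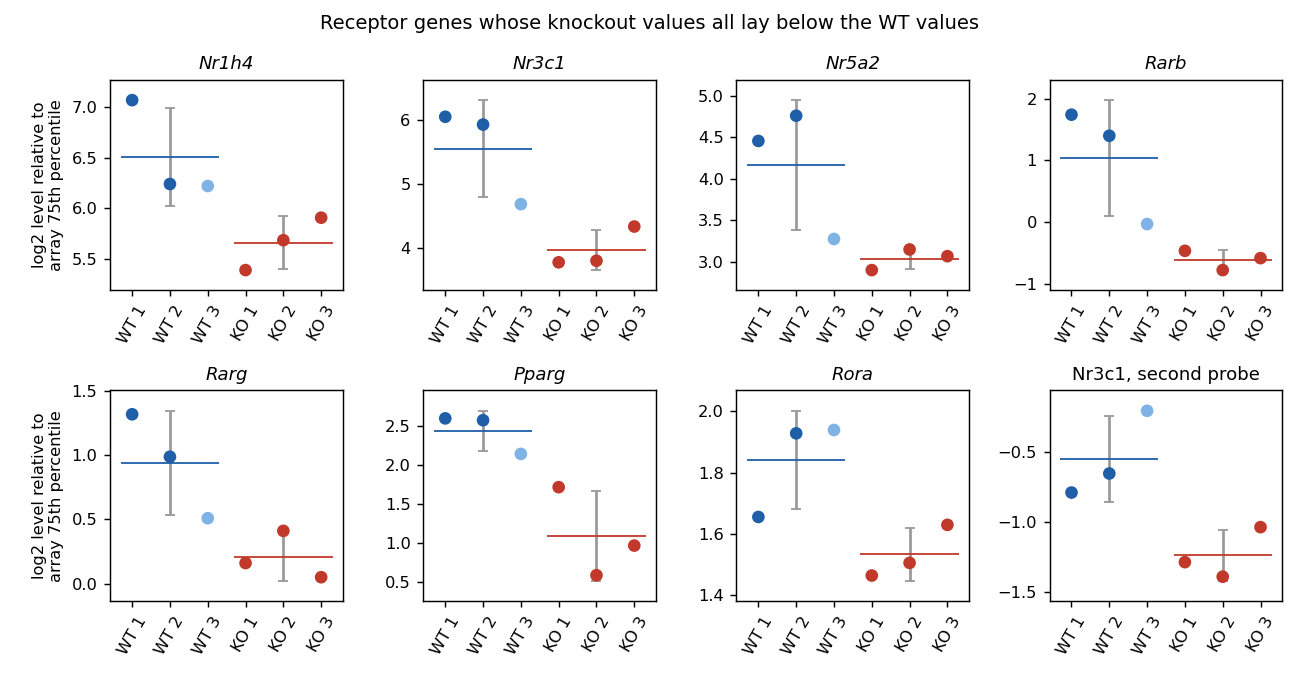
Log2 level relative to the array's 75th percentile (y axis) in each of the 6 livers (x axis) for the 7 receptor genes whose knockout livers all lay below the WT livers, and for the other Nr3c1 probe. Points are livers (WT 3 in light blue), horizontal lines are group means and grey bars are SD (n = 3). WT 3 is the lowest WT liver in Nr1h4, Nr3c1, Nr5a2, Rarb, Rarg and Pparg, and the highest in Rora and in the other Nr3c1 probe.

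The bile acid receptor FXR (Nr1h4), its target SHP (Nr0b2) and LRH-1 (Nr5a2) form a loop in which bile acids lower their own synthesis. Nr1h4 was at 7.06, 6.24 and 6.22 in WT livers and at 5.39, 5.69 and 5.91 in knockout livers. All WT livers were above all knockout livers, and WT replicates 2 and 3 were nearly equal. The means were 6.51 ± 0.48 (SD) and 5.66 ± 0.26, 1.80-fold apart, and the difference was -0.84 (SE 0.37, limma adjusted p = 0.238), with -0.56 (SE 0.28) for WT replicate 3 alone. Under the scaling to probes detected on all arrays it was -0.37 and the groups overlapped. Nr5a2, whose product activates genes of bile acid enzymes and reads hexamers such as those marked in the Nr0b2 promoter, was at 4.45, 4.76 and 3.28 in WT and at 2.90, 3.15 and 3.07 in the knockout. Its groups did not overlap, with WT replicate 3 just above the knockout livers. The Nr5a2 difference was -1.12 (SE 0.44, limma adjusted p = 0.235), and -0.24 (SE 0.21) with WT replicate 3 alone. The other Nr5a2 probe differed by -0.32 (SE 0.33), with groups that overlapped, and by 0.05 (SE 0.23) with WT replicate 3 alone.

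Nr0b2, which encodes a repressor without a DNA-binding domain, had values in the other direction, at -0.77, 0.73 and 1.40 in WT and at 1.46, 1.19 and 1.38 in the knockout. WT replicate 1 was far below the rest and WT replicate 3 lay among the knockout livers. The difference of 0.89 (SE 0.55, limma adjusted p = 0.303) became -0.06 (SE 0.21) with WT replicate 3 alone. Among 10 measured genes of the FXR and SHP axis, 2 were lower at an unadjusted p below 0.05, 0 were higher and 0 passed the limma test over all probes, with a median difference of -0.83, or -0.18 with WT replicate 3 alone. Klb, which encodes the β-Klotho coreceptor for FGF15 and FGF21, was at 3.87, 3.71 and 3.13 in WT and at 2.24, 2.26 and 2.37 in the knockout. All WT livers were above all knockout livers, by a difference of -1.28 (SE 0.33, limma adjusted p = 0.235), and of -0.84 (SE 0.19) with WT replicate 3 alone. Abcb11, the canalicular bile salt export pump, differed by -1.10 (SE 0.47) and Sult2a8, a bile acid sulfotransferase gene, by -1.03 (SE 0.47), and these were -0.10 (SE 0.22) and -0.14 (SE 0.34) with WT replicate 3 alone.

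Genes that LRH-1 or the HNF4 receptors activate formed a list of 12, all measured. Of these, 1 was lower and 1 higher by an unadjusted p below 0.05, 0 passed the limma test over all probes, and the median difference was -0.30, or -0.26 with WT replicate 3 alone. Mttp, which loads lipid onto apolipoprotein B, differed by -1.05 (SE 0.41), and by -0.26 (SE 0.20) with WT replicate 3 alone. Onecut1, a liver transcription factor gene, was well above background in 1 WT liver, replicate 3, and in 2 knockout livers. Its fitted difference of 3.43 (SE 1.24) rests in part on WT values not well above background and was 1.0 (SE 1.61) with WT replicate 3 alone. Cyp8b1, the sterol 12-hydroxylase that shapes the bile acid pool, was at -1.04, -0.30 and 3.96 in WT and at 3.19, 3.06 and 3.47 in the knockout, so its difference of 2.37 (SE 1.16) came from WT replicates 1 and 2 and was -0.71 (SE 0.25) with WT replicate 3 alone. Hnf4g, the γ relative of the main liver receptor HNF4α, was not well above background on any array.

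The glucocorticoid receptor (Nr3c1) binds cortisol or corticosterone and drives gluconeogenic genes in fasting. Its brighter probe was at 6.05, 5.93 and 4.69 in WT livers and at 3.78, 3.80 and 4.34 in knockout livers. All WT livers were above all knockout livers, although WT replicate 3 and knockout replicate 3 lay closer to each other than to the rest of their groups. The means were 5.55 ± 0.75 (SD) and 3.97 ± 0.32, 2.99-fold apart, and the difference was -1.58 (SE 0.45, limma adjusted p = 0.235), or -0.71 (SE 0.31) with WT replicate 3 alone. The other Nr3c1 probe was at -0.79, -0.65 and -0.20 in WT and at -1.29, -1.39 and -1.04 in the knockout, again without overlap, a difference of -0.69 (SE 0.32). There WT replicate 3 was the highest WT liver, and with it alone the difference was -1.03 (SE 0.23). Nr3c1 was the only receptor gene with probes both of which had all knockout livers below all WT livers, among the 10 genes with more than 1 measured probe. Nr3c2, the mineralocorticoid receptor gene, which also binds glucocorticoids, was dim, at -3.50, -2.61 and -1.90 in WT and at -2.42, -2.05 and -2.25 in the knockout. Its groups overlapped, 2 WT livers and all 3 knockout livers were well above background, and the difference was 0.43 (SE 0.45), or -0.34 (SE 0.24) with WT replicate 3 alone.

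Of 15 glucocorticoid receptor targets, all measured, 2 were lower and 3 higher (unadjusted p below 0.05), 0 passed the limma test over all probes, and the median difference was -0.61, or -0.09 with WT replicate 3 alone. Lcn2, an acute phase gene of lipocalin 2, was at 0.81, 0.49 and 1.29 in WT and at 2.39, 2.30 and 2.63 in the knockout. All knockout livers were above all WT livers, by 1.58 (SE 0.34, limma adjusted p = 0.235), and by 1.15 (SE 0.23) with WT replicate 3 alone. Tat, the tyrosine aminotransferase gene long used as a marker of glucocorticoid action in liver, was at 5.72, 6.89 and 7.39 in WT and at 8.08, 8.16 and 7.92 in the knockout. Its groups did not overlap either, with a difference of 1.39 (SE 0.46, limma adjusted p = 0.235), and of 0.66 (SE 0.21) with WT replicate 3 alone. Igfbp1, a fasting-induced binding protein of insulin-like growth factors, differed by -1.53 (SE 0.55), with knockout replicate 1 at 7.17 inside the WT range, and by -0.88 (SE 0.80) with WT replicate 3 alone.

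**Figure D4:**
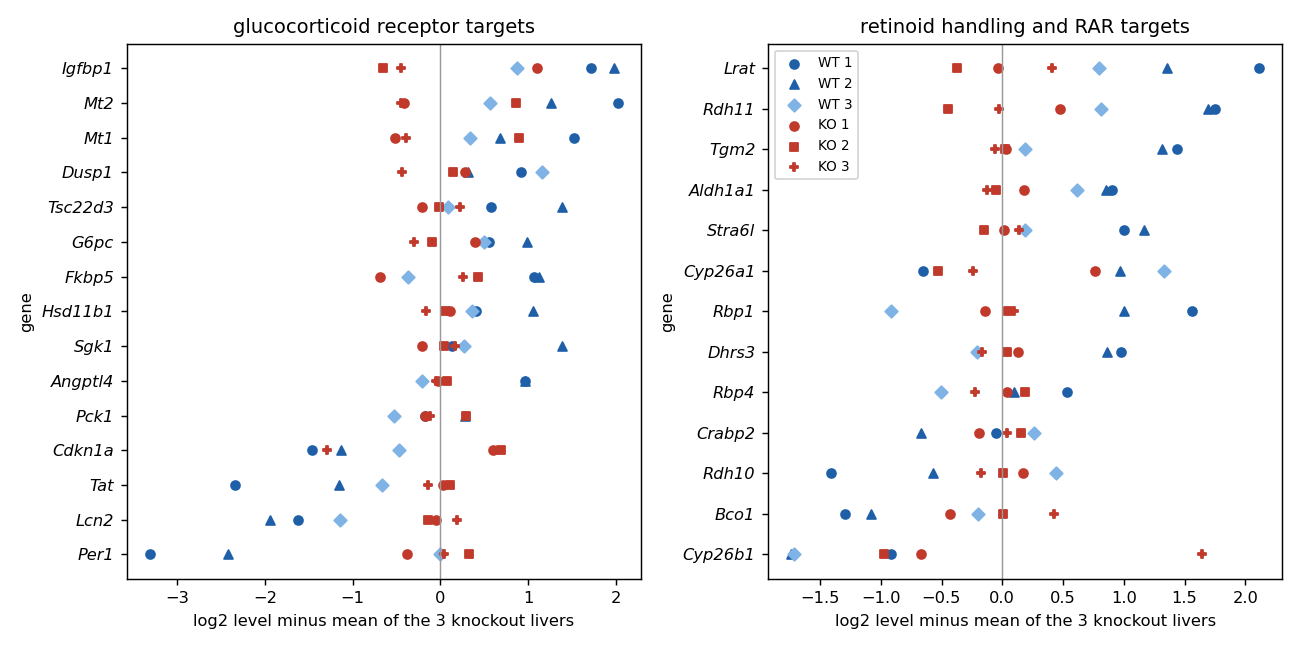
Log2 level minus the mean of the 3 knockout livers (x axis) for each measured gene (y axis) of the glucocorticoid receptor target list (left, 15 genes) and the retinoid list (right, 13 genes). Each symbol is 1 liver (WT blue, knockout red). Lcn2 and Tat have all knockout livers above all WT livers, and Lrat, Rdh11 and Aldh1a1 have all knockout livers below them.

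Pparg encodes PPARγ, the adipocyte receptor of fatty acid derivatives, which in liver takes part in fat storage. It was at 2.60, 2.58 and 2.14 in WT livers and at 1.72, 0.59 and 0.97 in knockout livers. All WT livers were above all knockout livers, the 3 WT livers lay close together, and knockout replicate 1 was nearest to them. The means were 2.44 ± 0.26 (SD) and 1.09 ± 0.58, 2.55-fold apart, with a difference of -1.35 (SE 0.39, limma adjusted p = 0.235), or -1.05 (SE 0.50) with WT replicate 3 alone. Measured against the median of all genes the difference was -0.86. Adipocyte markers overlapped between the groups over 4 measured genes. Their summed level was 2.45 to 3.36 in WT and 2.09 to 3.06 in the knockout. Of the 4, 3 were lower and 1 higher in the knockout, with a median difference of -0.69, or -0.27 with WT replicate 3 alone. Lep, a gene that defines fat cells, was not above background on any array. Adipoq, another fat cell gene, was well above background on 2 WT livers and 1 knockout liver. The part of fat cells in the Pparg values was not tested. Ppard, the δ form that is expressed widely, was at 1.01, 1.14 and -0.18 in WT and at 0.27, 0.46 and 0.18 in the knockout. Its difference was -0.35 (SE 0.42), and WT replicate 3 alone lay below all knockout livers, which gave 0.48 (SE 0.22).

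Of 8 measured PPARγ targets, 1 was lower at an unadjusted p below 0.05, 0 were higher, 0 passed the limma test over all probes, and the median difference was -0.37, or -0.39 with WT replicate 3 alone. Mogat1, a monoacylglycerol acyltransferase gene that PPARγ raises in fatty liver, was at -1.03, -1.01 and -1.12 in WT and at -1.25, -2.95 and -2.90 in the knockout. The groups did not overlap, but knockout replicate 1 lay near the WT livers, as it was nearest to them for Pparg. The Mogat1 difference was -1.31 (SE 0.49, limma adjusted p = 0.235), with 1 of 3 knockout livers well above background, and it was -1.25 (SE 0.81) with WT replicate 3 alone. Lpl, the lipoprotein lipase gene, was at 3.18, 2.81 and 1.33 in WT and at 3.26, 3.16 and 3.63 in the knockout, with WT replicate 3 the lowest liver. It differed by 0.91 (SE 0.51), and by 2.02 (SE 0.27) with WT replicate 3 alone. Plin4, a lipid droplet coat gene, differed by -0.64 (SE 0.39), and by -0.45 (SE 0.45) with WT replicate 3 alone.

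The thyroid hormone receptors gave opposite signs. Thrb, the main form of hepatocytes, was at -1.14, 0.16 and 1.49 in WT livers and at 1.29, 1.43 and 1.47 in knockout livers. WT replicate 3 was the highest of the 6 livers and WT replicate 1 the lowest, so that the difference of 1.23 (SE 0.62, limma adjusted p = 0.252) became -0.09 (SE 0.20) with WT replicate 3 alone. The other Thrb probe differed by 0.16 (SE 0.36), and by -0.40 (SE 0.22) with WT replicate 3 alone. Thra, the form best known from heart and brain, was at 3.01, 3.08 and 2.06 in WT and at 2.09, 1.93 and 1.91 in the knockout, giving a difference of -0.74 (SE 0.37), or -0.08 (SE 0.20) with WT replicate 3 alone. Of 10 measured genes of the thyroid hormone axis, 1 was lower at an unadjusted p below 0.05 and 0 were higher, with a median of -0.55, or 0.00 with WT replicate 3 alone, and 0 past the limma test over all probes. It was Me1, the malic enzyme gene, at -1.35 (SE 0.52), which rested on WT replicates 1 and 2 and was -0.34 (SE 0.48) without them. Gpd2, a mitochondrial glycerol phosphate dehydrogenase gene, differed by -0.83 (SE 0.42), and by -0.03 (SE 0.23) without them. Serpina7, which carries thyroxine in blood, differed by -1.08 (SE 0.58), and by -0.61 (SE 0.93) without them.

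The oxysterol receptors LXRα (Nr1h3) and LXRβ (Nr1h2) control cholesterol efflux and lipogenesis. Nr1h3 was at 6.49, 6.18 and 5.44 in WT livers and at 5.45, 5.58 and 5.39 in knockout livers, and Nr1h2 at 5.45, 5.37 and 4.52 and at 4.50, 4.81 and 4.63. In both genes WT replicates 1 and 2 were the highest livers and WT replicate 3 lay among the knockout livers. The differences were -0.56 (SE 0.37) for Nr1h3 and -0.46 (SE 0.36) for Nr1h2, and 0.03 (SE 0.20) and 0.13 (SE 0.22) with WT replicate 3 alone. Of 11 LXR targets, all measured, 2 were lower and 1 higher by an unadjusted p below 0.05, with a median of -0.27, or -0.33 with WT replicate 3 alone, and 0 past the limma test over all probes. Srebf1, the lipogenic transcription factor gene, was at -3.56, -1.62 and 0.98 in WT and at 1.86, 1.23 and 1.54 in the knockout, and WT replicate 1 was not well above background. The fitted difference of 2.94 (SE 1.0) rests in part on that value, and it was 0.56 (SE 0.31) with WT replicate 3 alone. Abcg5, a sterol exporter gene, differed by -1.35 (SE 0.47) and Smpdl3a, a phosphodiesterase gene, by -1.06 (SE 0.37), and with WT replicate 3 alone by -0.33 (SE 0.22) and -0.44 (SE 0.20).

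The retinoid X receptors are the shared partners of the receptors above. Rxra, the main hepatocyte form, was at -0.13, 0.51 and 0.58 in WT and at 0.45, 0.77 and 0.62 in the knockout on its brighter probe, a difference of 0.30 (SE 0.34), and its other probe differed by -0.12 (SE 0.32). With WT replicate 3 alone these were 0.04 (SE 0.22) and 0.15 (SE 0.25). Rxrb was at 5.70, 5.57 and 4.27 in WT and at 4.57, 4.78 and 4.43 in the knockout, giving a difference of -0.59 (SE 0.44). WT replicate 3 was the lowest of the 6 livers, and alone it gave 0.33 (SE 0.23). Rxrg differed by -0.33 (SE 0.35), and by -0.64 (SE 0.35) on its other probe, or by 0.14 (SE 0.28) and -0.17 (SE 0.25) with WT replicate 3 alone. The groups of all 3 genes overlapped. Vdr, the vitamin D receptor gene, which hepatocytes hardly express, was not well above background on any array. Of 5 measured genes of the vitamin D axis, Cyp2r1, a vitamin D 25-hydroxylase gene, was the only member with an unadjusted p below 0.05, at -0.88 (SE 0.37, limma adjusted p = 0.237), or -0.35 (SE 0.24) with WT replicate 3 alone. Cyp27a1, a sterol 27-hydroxylase gene, was at -1.63, 0.34 and 3.65 in WT, so its difference of 2.25 (SE 1.15) turned to -0.61 (SE 0.26) with WT replicate 3 alone. Cyp2j6, a P450 gene, differed by 0.62 (SE 0.47), and by -0.22 (SE 0.34) with WT replicate 3 alone, and the list's median was 0.62, or -0.35 with WT replicate 3 alone.

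Among the orphan receptors, for which no ligand is settled, the COUP-TF genes had their highest values on WT replicates 1 and 2. Nr2f2, which encodes COUP-TFII of endothelium and mesenchyme, was at 3.62, 3.43 and 1.92 in WT livers and at 1.40, 1.71 and 1.97 in knockout livers. WT replicate 3 lay among the knockout livers, and the difference of -1.30 (SE 0.50, limma adjusted p = 0.235) was -0.23 (SE 0.29) with it alone. Nr2f1 (COUP-TFI) differed by -1.16 (SE 0.59) and by 0.12 (SE 0.48) with WT replicate 3 alone, and Nr2f6 (EAR2) by -0.32 (SE 0.35) and 0.15 (SE 0.28). The testicular receptor genes gave opposite signs on their brightest probes. Nr2c1 (TR2) was at 3.07, 2.75 and 1.39 in WT and at 1.15, 1.12 and 1.62 in the knockout. Its difference was -1.11 (SE 0.48), or -0.10 (SE 0.29) with WT replicate 3 alone. The other Nr2c1 probe went the other way, at -0.26, 0.45 and 0.90 in WT and at 0.77 and 0.84 in knockout replicates 2 and 3. It was not fitted, because its spot on knockout replicate 1 was marked as an outlier. Nr2c2 (TR4) was at -0.75, -0.51 and 0.18 in WT and at -0.09, 0.22 and 0.53 in the knockout, giving a difference of 0.58 (SE 0.37), and its other probe differed by 1.72 (SE 0.75). With WT replicate 3 alone these were 0.04 (SE 0.31) and -0.15 (SE 0.27). The other Nr2c2 probe was well above background on 2 of the 3 WT livers.

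Of 10 measured markers of endothelium, where Nr2f2 is also expressed, 7 were lower in the knockout and 3 higher. By an unadjusted p below 0.05, 3 were lower (Fcgr2b, Gpr182 and Oit3) and 2 higher (Kdr and Cdh5). All knockout values lay below all WT values in 6 and above them in 1. Over all genes these 4 shares were 16.6%, 3.99%, 21.1% and 4.42%. The median difference was -0.68, or -0.30 with WT replicate 3 alone. With that liver alone the named genes differed by -0.46, -0.46, -0.34, 0.81 and 0.47, in the order given. The summed level was 7.01 to 7.55 in WT and 6.83 to 7.14 in the knockout. The part of endothelial or stellate RNA in the Nr2f2 values was not tested.

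Rora encodes RORα, an activator of clock and lipid genes. It was at 1.65, 1.93 and 1.94 in WT livers and at 1.46, 1.50 and 1.63 in knockout livers. The groups did not overlap, with WT replicate 1 just above knockout replicate 3, and of the 7 receptors without overlap Rora was the only gene in which WT replicate 3 was not the lowest WT liver on the brightest probe. The difference was -0.31 (SE 0.30, limma adjusted p = 0.474), or -0.41 (SE 0.19) with WT replicate 3 alone, and under the scaling to probes detected on all arrays it was 0.17. Of 6 measured ROR and REV-ERB targets, 0 had an unadjusted p below 0.05 in limma and 0 passed over all probes, with a median of -0.57, or 0.28 with WT replicate 3 alone. Arntl, a core clock gene, was at 1.10, 1.87 and 0.87 in WT and at 1.56, -0.33 and -0.80 in the knockout, giving a difference of -1.13 (SE 0.63), or -0.72 (SE 1.03) with WT replicate 3 alone. Nfil3, a clock-controlled repressor gene, differed by -0.91 (SE 0.54), and by -0.06 (SE 0.69) with WT replicate 3 alone. Cyp4a10, a fatty acid hydroxylase gene, differed by -0.53 (SE 0.41), and by -0.83 (SE 0.55) with WT replicate 3 alone.

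Of the sex steroid receptors, Esr1, the oestrogen receptor α gene, was at -0.27, 1.21 and -0.49 in WT livers and at -0.18, -1.0 and 0.00 in knockout livers. WT replicate 2 stood above the rest, the groups overlapped, and the difference was -0.54 (SE 0.53), against 0.21 (SE 0.37) on its other measured probe. With WT replicate 3 alone these were 0.10 (SE 0.47) and 0.48 (SE 0.34). Pgr, the progesterone receptor gene, had 2 probes, neither of them well above background on any array. Nr6a1, the germ cell nuclear factor gene, was well above background on WT replicate 3 only, at -2.88. No fold is given for Pgr, Nr6a1, Vdr or Hnf4g.

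**Figure D5:**
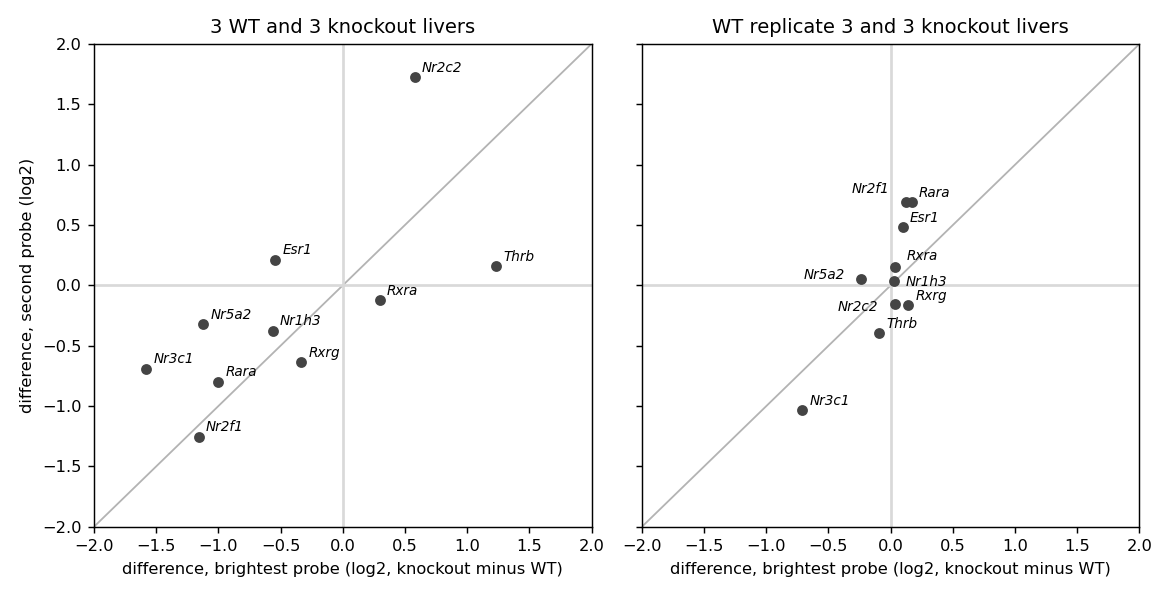
Difference in log2 level (knockout minus WT) of the other measured probe (y axis) against that of the brightest probe (x axis) for the 10 receptor genes with more than 1 measured probe, with all 6 livers (left) and with WT replicate 3 as the only WT liver (right). The diagonal marks equal differences. Nr3c1 lies at the lower left in both panels, and the other genes lie between -0.24 and 0.17 on the x axis in the right panel.

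Probes of the same gene bound what a single value can carry. For 10 receptor genes with more than 1 measured probe, the median gap between the differences of their probes was 0.59 with all livers and 0.30 with WT replicate 3 alone. The signs were opposite in 2 genes, Rxra and Esr1, with all livers, and in 3, Nr2c2, Nr5a2 and Rxrg, with WT replicate 3 alone. The other Nr2c1 probe was not fitted and is in neither count. The other Rarb probe was well above background only on WT replicate 3, and the other Nr2f1 probe on 2 WT livers and 1 knockout liver, so neither tests its brighter partner. Pparg, Nr1h4, Rarg and Rora rest on 1 measured probe each. Under 4 other treatments of the signal (the scaling to detected probes, quantile normalization, normexp and the deposited matrix), Nr3c1, Nr5a2 and Rarb had all knockout livers below all WT livers in all 4, Rarg in 3, and Nr1h4 and Rora in 2. The Pparg probe had a value under 3 of these and was separated in all 3.

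Receptors beyond the 28 were counted for comparison. Of 14 measured among 21 others, 5 were lower at an unadjusted p below 0.05, 0 were higher, 5 had all knockout livers below all WT livers, and 0 passed the limma test over all probes, beside 16.6%, 3.99%, 21.1% and 0% of all genes. Their median difference was -0.33, or -0.44 with WT replicate 3 alone. Nr4a1, an immediate early orphan receptor gene, was at 2.66, 3.51 and 2.47 in WT and at 0.15, -0.91 and -0.39 in the knockout, and differed by -2.85 (SE 0.47) with WT replicate 3 alone. Nr1i3, the xenobiotic receptor CAR, differed by -0.95 (SE 0.32), and Nr1h5, the lanosterol receptor FXRβ, by -1.46 (SE 0.51), or by -0.72 (SE 0.28) and -1.0 (SE 0.57) with WT replicate 3 alone. Hnf4a, the master regulator of hepatocyte genes, differed by -0.12 (SE 0.39), but by 0.58 (SE 0.20) with WT replicate 3 alone, which was below all knockout livers. Ppara, the fasting receptor for fatty acids, differed by 0.11 (SE 0.38), and by -0.02 (SE 0.52) with WT replicate 3 alone. Both were chosen for mention after their values were seen.

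Cofactors that the receptors recruit were counted in the same way. Of 14 measured coactivators, 5 were lower and 3 higher (unadjusted p below 0.05), 0 passed the limma test over all probes, and the median difference was -0.86, or -0.12 with WT replicate 3 alone. The 3 that were higher were Med1, a Mediator subunit that contacts receptors, by 1.07 (SE 0.39), Carm1, an arginine methyltransferase, by 1.17 (SE 0.46), and the acetyltransferase Ep300 by 2.19 (SE 0.66), which was well above background on 1 WT liver. All 3 had every knockout liver above every WT liver (4.42% of all genes), and limma gave each an adjusted p of 0.235. In 2 others, Ncoa4 and Pnrc2, every knockout liver lay below every WT liver (21.1% of all genes). The 5 lower at an unadjusted p below 0.05 in limma were Ncoa4, Ncoa3, Crebbp, Prmt1 and Ncoa6. Of the 14 coactivators, 10 were lower and 4 higher. With WT replicate 3 alone the differences were 0.46 (SE 0.34) for Med1, 0.36 (SE 0.29) for Carm1 and 0.65 (SE 0.31) for Ep300. Of 9 measured corepressors, 0 had an unadjusted p below 0.05 in limma, 0 passed over all probes and 0 had groups without overlap, with a median of 0.08, or -0.12 with WT replicate 3 alone. Nsd1, a histone methyltransferase gene, differed by -1.07 (SE 0.48) and Tbl1xr1, a subunit gene of corepressor complexes, by -0.76 (SE 0.39), and with WT replicate 3 alone they differed by -0.12 (SE 0.32) and -0.12 (SE 0.25).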

How the data were processed

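RNA from 3 WT and 3 Gα12 KO livers was hybridised to 6 one-colour arrays, from 0.5 µg of RNA each, per the labels' protocols. Scanner output came from Agilent Feature Extraction 10.7.3.1, per the file headers and the processing notes. It was deposited as a linear, background-subtracted intensity for each spot. The values of the deposited matrix are on a log2 scale and match the logarithm of that intensity up to 1 constant per array; how the authors chose the constants is not given in the sources used here, and the matrix served as an alternative.

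Here log2 intensities were reduced by each array's 75th percentile of non-control spots, outlier spots were left out and spots of a probe were averaged. Of 55681 probes, the 23132 that were well above background in 3 livers or more were kept. Well above background were 22951, 23530 and 28752 probes on WT replicates 1 to 3 and 21778, 20953 and 22585 on the knockout arrays, and no non-control spot was saturated. Symbols came from a RefSeq table (GRCm38.p6) by unversioned accession, for 26756 probes of 20280 genes. Each gene was read from the brightest of its kept probes (highest mean over 6 arrays). Knockout was compared with WT by two-sided tests in limma 3.58.1 (lmFit, then eBayes; R 4.3.3), with Benjamini-Hochberg adjustment over all kept probes and a threshold of 0.05. The method was tested on simulated data. The outcome of that test is not given here, so it adds no support to the results, including where WT arrays stood apart from each other. By the labels each group had 3 mice, and an array was therefore counted as 1 mouse. They name both an RNeasy kit and TRIzol for RNA isolation, without saying which was used for which liver. The number of arrays limits the precision.

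All receptors are named, in full where the unadjusted p was below 0.05, the groups did not overlap or probes disagreed. In each other list the 3 genes with the lowest p are named, except 1 that is not reported here, and others only where the text gives a reason or contrast (Cyp26a1, Hnf4a and Ppara were chosen after their values were seen). The members and lists were chosen with earlier results of these data known, so nothing here is independent support for those. Alternatives were other scalings, background correction, filters, probe rules, a replicate block and leaving out arrays.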

Additional observations from a re-analysis of the deposited data

How the results depend on the processing

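Of 24 receptor differences, 10 kept their sign under every alternative they had a value for and 14 did not. There were 16 alternatives, and among these Pparg had no value in the deposited matrix used here, and Nr3c2 and Nr2f1 none with the filter on all 6 arrays. With WT replicates 1 and 2 left out together the sign turned in Nr0b2 (-0.058), Nr1h2 (0.13), Nr1h3 (0.029), Nr2f1 (0.12), Nr2f6 (0.15), Nr3c2 (-0.34), Rxrb (0.33), Rxrg (0.14), Rara (0.17), Thrb (-0.092), Esr1 (0.10) and Ppard (0.48). Scaling to probes detected on all arrays turned it in Nr1h2 (0.0091), Nr2f6 (0.16), Rxrg (0.14), Ppard (0.12) and Rora (0.17), quantile normalization in Nr1h2 (0.026), Nr2f6 (0.22) and Rxrg (0.10), normexp in Rxra (-0.077), and the deposited matrix, where another Esr1 probe was used, in Esr1 (0.16). The cause was not tested. With 1 array left out in turn, limma called 0 to 18 receptors at an adjusted p below 0.05. The 18 came without WT replicate 3, where 7641 of all 12294 genes were called. In the same fits 3 to 15 receptors were lower at an unadjusted p below 0.05 and 0 to 4 higher. Of all genes, 553 to 6740 were lower and 127 to 1642 higher at that p. All knockout livers lay below all WT livers in 7 to 18 receptors and above them in 0 to 4. Over all genes these counts were 2799 to 7558 and 642 to 2127. Without WT replicates 1 and 2 together, 0 were lower at an unadjusted p below 0.05 and 2 had the knockout livers above. Without the filter on dim probes 1 was higher at an unadjusted p below 0.05 and 2 had the knockout livers above. Over all 20193 genes of that fit these counts were 3154 and 4126. Same-numbered livers did not deviate together (r = -0.13, 0.01 and -0.04), and differently numbered ones had r of -0.20 to 0.22. With 3 livers in each group and WT replicates 1 and 2 apart from WT replicate 3, this cannot show whether the replicate numbers pair them. A fit with the replicate number as a block had 5 receptors lower, 0 higher and 0 called, and 1538 of all genes lower and 652 higher. Signal over background limited Nr3c2, Nr2f1 and Esr1, and 4 receptors could not be measured.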

Other observations

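Markers of other cell types a piece of liver can hold were measured in the same fit. Kupffer cell and macrophage markers, 8 of them measured, had a summed log2 level of 6.29 to 7.51 in WT and 6.35 to 6.65 in the knockout, with 0 at an unadjusted p below 0.05 in limma and 0 past the test over all probes. Adgre1, the F4/80 antigen gene, differed by -0.86 (SE 0.45), and Vsig4, a complement receptor of resident macrophages, by -0.98 (SE 0.51), but by 0.04 (SE 0.28) and 0.15 (SE 0.29) with WT replicate 3 as the only WT liver. Of the 8 markers, 6 were lower and 2 higher, with a median difference of -0.36, or 0.10 with WT replicate 3 alone. Marco was among the higher ones, by 0.59 (SE 0.46), or 1.29 (SE 0.51) with WT replicate 3 alone. Cholangiocyte markers (4 measured of 7) summed to 0.44 to 1.80 in WT and 1.27 to 1.65 in the knockout, and lymphocyte markers (5 of 8) to 3.15 to 3.73 and 3.24 to 3.77. Erythroid markers (4 of 5) summed to 8.30 to 9.17 and 8.12 to 8.35, with 3 of the 4 lower in every knockout liver than in every WT liver (21.1% of all genes). Their median difference was -0.59, or -0.23 with WT replicate 3 alone. Muscle markers (3 of 8) summed to 0.02 to 0.42 and -0.78 to 1.63, with Ckm above background on no array. That sum joins genes that went opposite ways. Acta1 was higher in every knockout liver than in every WT liver, by 2.58 (SE 0.76). It was well above background on 1 WT liver and 2 knockout livers. Cnn1 was lower in every knockout liver, with a difference of -1.20 (SE 0.38).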
